A study of Mus musculus with 6 samples.

Results

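The collagen genes of *Pdx1-Cre* labelled cells from mouse embryos were examined in libraries with and without *mir-302*. They are the 44 genes, of 55414 in the count table, whose Ensembl identifier maps to a mouse symbol made of Col, a number, the letter a and a number. By protein type, 11 encode fibrillar chains, 6 type IV chains, 9 chains of the FACIT collagens (which attach to fibrils), 6 type VI chains, 4 transmembrane collagens, 3 multiplexin or anchoring chains, 3 short chains and 2 others. At least 1 count was present for 43 of them, *Col10a1* had 0 counts in each of the 6 libraries, and the 35 that were not too low for edgeR's filter were tested.

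The embryos came from males with *Pdx1-Cre* and females with a *Rosa26* LSL-tdTomato reporter, both heterozygous for *mir-302*, and their trunk region was taken at E10.5. Labelled cells were sorted, and polyadenylated RNA was amplified from small amounts and sequenced in 3 WT libraries (*Pdx1-Cre*+, tdTomato+, miR-302 WT) and 3 KO libraries (*Pdx1-Cre*+, tdTomato+, miR-302 KO). All 6 therefore carry the Cre transgene and the reporter. The reporter marks every descendant of a cell in which *Pdx1-Cre* was active, so the sort selects a lineage and not a cell state, and *mir-302* is missing from the whole KO embryo and not from the labelled cells alone. The sources used here do not say whether a library came from 1 embryo or from pooled embryos, so p-values measure the spread between these libraries.

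Collagens are secreted or membrane-bound proteins whose chains wind around each other into a stiff helix. Fibrillar collagens assemble into the ropes of connective tissue and are made mostly by mesenchymal cells. Type IV collagen forms the sheet-like network of the basement membrane, on which epithelia such as the pancreatic bud rest, and FACIT, type VI and multiplexin collagens link fibrils, cells and basement membranes. Chains are hydroxylated and glycosylated in the endoplasmic reticulum, and a shortage of one partner chain can hold back a trimer.

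Total counts ran from 17352498 to 26634523 per library. Of the *mir-302* cluster, *Mir302d* had 2 counts in KO replicate 3 and the other annotated genes none in any library, so these polyadenylated libraries cannot check the genotype labels. The labelled cell type was present by its markers, with *Pdx1* at 73.1 to 107.5 CPM (counts scaled to a common library size, with TMM factors) and 5 epithelial markers summing to 3568 to 4115 CPM. Hepatic markers ran from 564 to 1766 CPM. One library stood apart. KO replicate 2 had 1.71 CPM of 9 endothelial markers, against 20.2 to 43.8 CPM in the others. Of the 9, 6 were at 0 there, against 4 in KO replicate 3 and 0 to 2 in each of the remaining libraries. Globins and 2 other primitive blood markers summed to 13431 CPM in WT replicate 3, 5295 in KO replicate 1 and 286 in KO replicate 3, and to under 2 CPM in each of the remaining libraries.

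Collagen transcripts were abundant in 5 libraries and much lower in KO replicate 2. Summed over the 44 genes, they were at 1953, 1796 and 2520 CPM in WT and 2295, 789 and 2637 CPM in KO (here and below, values are in the order of replicates 1, 2 and 3). The genotypes overlapped, and KO replicate 2 was below every other library. Most expressed genes were not lowest there. Of the 22 tested collagen genes with a mean of at least 5 CPM, 19 (86.4%) were lowest in KO replicate 2, against 21.85% of the 11402 tested genes at this level.

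Per kilobase of the longest coding transcript, the scale on which genes can be compared, the highest median levels over the 6 libraries belonged to *Col18a1* (65.1 CPM per kb), *Col4a1* (64.6), *Col3a1* (55.2), *Col2a1* (40.9), *Col1a2* (35.0), *Col1a1* (25.1) and *Col4a2* (22.9). Neighbours in this order mostly changed places between libraries. *Col18a1* was above *Col4a1* in 4 of 6 libraries, and *Col4a1* above *Col3a1*, *Col3a1* above *Col2a1* and *Col2a1* above *Col1a2* in 3 of 6 each. *Col4a5* (7.73 CPM per kb) and *Col26a1* (5.39) came after *Col9a3* (15.7), and *Col4a5* was above *Col26a1* in 6 of 6 libraries. The plot of levels by library shows the genes with a mean of at least 5 CPM.

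**Figure D1:**
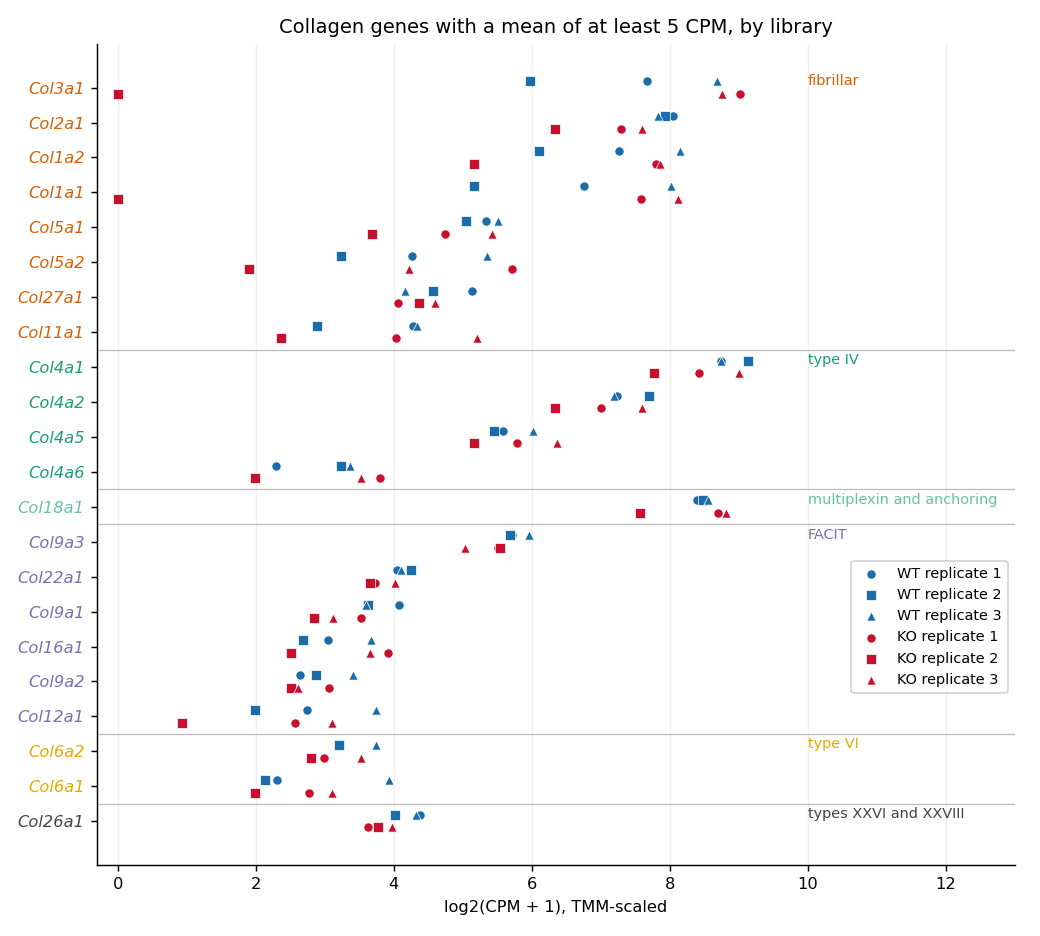
Levels of the 22 collagen genes with a mean of at least 5 CPM, as log2(CPM + 1), in the 3 WT (blue) and 3 KO (red) libraries. KO replicate 2 (red square) is the lowest point in 19 of the 22 rows, and *Col1a1* and *Col3a1* are at 0 there.

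The chains of collagens I and III, the main fibrils of loose connective tissue, were high and low in the same libraries and differed more within each genotype than between the genotypes. *Col3a1* (ENSMUSG00000026043.19), the chain of collagen III, was at 202, 62.1 and 412 CPM in WT and 518, 0 and 432 CPM in KO. *Col1a1*, which encodes a chain of collagen I, was at 107, 34.8 and 259 CPM in WT and 190.2, 0 and 277.5 CPM in KO. *Col1a2*, its partner chain, was at 152, 67.5 and 284 CPM in WT and 223, 34.9 and 230.5 CPM in KO. For each of the 3 genes, WT replicate 2 was the lowest WT library and KO replicate 2 the lowest KO library, and the genotypes overlapped.

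The partner chains were not low to the same degree in KO replicate 2. That library held 612 counts of *Col1a2* but 0 counts of *Col1a1* and 0 of *Col3a1*. From a count table, absent transcripts and reads lost before or during counting cannot be told apart, and the bounds given next hold for the counts as deposited. A count of 0 there allows up to 3 counts, or 0.171 CPM, so the next lowest library, WT replicate 2, was at least 203-fold higher for *Col1a1* and at least 363-fold higher for *Col3a1*. In a comparison chosen after these values were seen, 6042 genes were at 30 CPM or more in each of the other 5 libraries, and *Col1a1* and *Col3a1* were the 2 among them with 0 counts in KO replicate 2. The same comparison for each of the other libraries found 0 such genes among 5967 to 6006. Outside that library, *Col1a1* was at 0.464 to 1.09 times the level of *Col1a2* per kilobase, and *Col3a1* at 0.885 to 2.23 times.

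The 250 bases before the RefSeq start of *Col1a2* and of *Col3a1* are given here (GRCm38.p6, plus strand). The promoter set used holds no entry for *Col1a1*. They are reference sequences, the same for every library, and a link to the levels was not tested. The *Col1a2* stretch lies at chr6:4505368-4505617 and the *Col3a1* stretch at chr1:45311288-45311537. Capitals mark matches on either strand to CCAAT, the box found in many collagen promoters, to GGGCGG, a GC box, and to TATAAA.
*Col1a2*: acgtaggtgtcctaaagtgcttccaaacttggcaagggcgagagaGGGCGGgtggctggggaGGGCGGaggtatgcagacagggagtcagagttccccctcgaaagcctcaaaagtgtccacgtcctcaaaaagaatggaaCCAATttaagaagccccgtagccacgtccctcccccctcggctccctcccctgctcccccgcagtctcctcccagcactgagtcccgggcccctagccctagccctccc
*Col3a1*: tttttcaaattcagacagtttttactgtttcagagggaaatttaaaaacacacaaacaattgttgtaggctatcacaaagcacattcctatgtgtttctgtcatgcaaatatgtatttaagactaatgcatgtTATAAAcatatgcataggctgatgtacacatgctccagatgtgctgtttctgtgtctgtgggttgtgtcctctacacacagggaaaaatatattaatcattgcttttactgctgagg

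The *Col1a2* stretch has 1 CCAAT and 2 GGGCGG matches and the *Col3a1* stretch 1 TATAAA match. In windows of 250 bases before to 50 after the start, CCAAT was found in 37.4% of all 32851 promoters and in 13 of the 38 listed for 35 collagen genes (34.2%). The shares were 35.7% and 23 of 38 (60.5%) for GGGCGG and 13.6% and 5 of 38 (13.2%) for TATAAA. A match is a string of letters, and binding was not measured.

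Most, but not all, of 12 mesenchymal markers were low in the same libraries, with 7 lowest of their genotype in both WT replicate 2 and KO replicate 2. Together they summed to 202, 124 and 292 CPM in WT and 252, 101 and 204 CPM in KO, most of it *Vim* at 81.1 to 151 CPM. Of the 12, *Twist1*, *Twist2*, *Prrx1* and *Tbx18* were at 0 in KO replicate 2, and 11 were lowest there among the KO libraries. *Meox1* was not, at 5.58 CPM there against 4.25 and 4.03 CPM in the other KO libraries, and *Meox1*, *Foxf1*, *Tbx18* and *Prrx2* were not lowest of the WT libraries in replicate 2, and *Meox2* was at 0 in WT replicates 1 and 2. *Pdgfra*, a receptor that defines much of the embryonic mesenchyme, was at 26.3, 9.22 and 71.6 CPM in WT and 52.7, 0.912 and 54.9 CPM in KO. The lowest libraries for *Pdgfra* were thus also the lowest for *Col1a1*, *Col1a2* and *Col3a1*, whereas the epithelial sum was 4115 CPM in KO replicate 2 and 3568 to 4067 CPM in the other libraries. The part of these cells in the collagen values was not tested. In bulk libraries such as these, fewer cells of a type and less RNA per cell cannot be told apart.

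**Figure D2:**
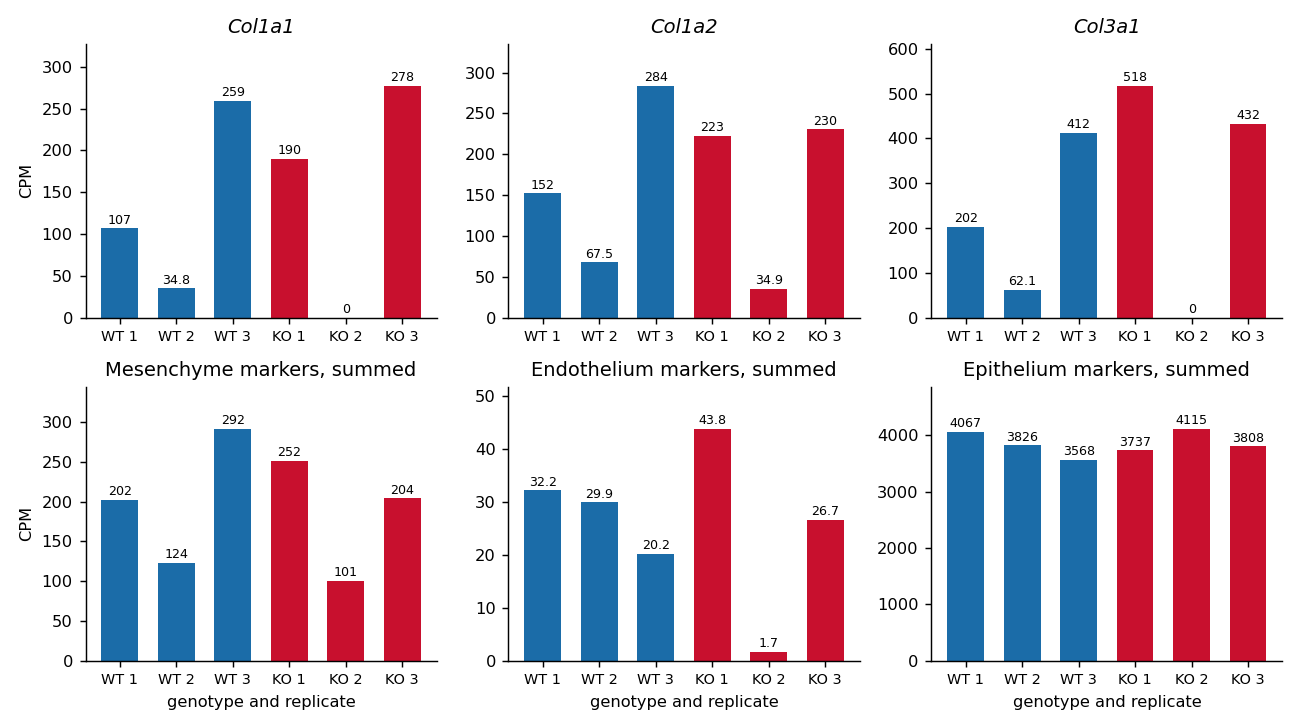
Levels in CPM of *Col1a1*, *Col1a2* and *Col3a1* (upper row) and summed CPM of 12 mesenchymal, 9 endothelial and 5 epithelial markers (lower row) in each WT (blue) and KO (red) library. The collagen bars are low in WT replicate 2 and KO replicate 2, as are the mesenchymal bars, and the epithelial bars stay between 3568 and 4115 CPM.

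By edgeR's quasi-likelihood test, none of the 3 genes differed between genotypes beyond this spread. The fitted log2 fold changes of KO against WT were 0.49 (standard error 1.53, adjusted p = 0.959) for *Col3a1*, 0.22 (1.42, adjusted p = 0.979) for *Col1a1* and -0.04 (0.72, adjusted p = 0.992) for *Col1a2*. For *Col3a1* and *Col1a1* the KO side includes a library at 0, KO replicate 2. Without that library the 3 fold changes were 1.09, 0.82 and 0.45, with adjusted p-values of 0.597, 0.756 and 0.838.

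The chains that start and regulate fibrils followed the same libraries at lower levels. *Col5a1* and *Col5a2* belong to collagen V, which nucleates collagen I fibrils. *Col5a1* was at 39.5, 32.1 and 44.8 CPM in WT and 25.7, 11.9 and 42.0 CPM in KO. *Col5a2* was at 18.3, 8.44 and 39.8 CPM in WT and 51.7, 2.74 and 17.6 CPM in KO, so KO replicate 1 was the highest and KO replicate 2 the lowest of all 6. *Col11a1*, a nucleating chain of collagen XI, was at 18.5, 6.42 and 19.2 CPM in WT and 15.4, 4.16 and 35.9 CPM in KO. The genotypes overlapped for all 3 genes, and their adjusted p-values were 0.75 or higher.

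*Col27a1*, a fibrillar chain of cartilage and other tissues, did not share the low values of KO replicate 2. It was at 34.2, 22.7 and 16.9 CPM in WT and 15.7, 19.7 and 23.1 CPM in KO. The remaining fibrillar chains were scarce, with *Col11a2* at 2.34 to 5.59 CPM, *Col24a1* at 0 to 2.45 CPM and *Col5a3*, which was not tested, at 0 to 1.31 CPM.

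*Col2a1* differed from the other abundant fibrillar genes, because its 3 WT values were close together and above all 3 KO values. The gene (ENSMUSG00000022483.18) encodes the chain of collagen II, best known from cartilage and notochord and also made by embryonic epithelia. It was at 263, 242 and 225 CPM in WT and 157, 80.1 and 192 CPM in KO. The means were 243 ± 18.8 CPM for WT against 143 ± 57.3 CPM for KO (SD, n = 3 libraries). KO against WT came to -0.77 on the log2 scale (standard error 0.28), with an unadjusted p of 0.0289 and an adjusted p of 0.382 by edgeR's quasi-likelihood test. DESeq2 gave -0.75 (0.26) and an adjusted p of 0.0706, the smallest of any collagen gene under any setting. Without KO replicate 2 the log2 fold change was -0.47 (unadjusted p = 0.00428, adjusted p = 0.197 by the edgeR test). Without WT replicates 1, 2 and 3 in turn, the unadjusted p-values were 0.0807, 0.0576 and 0.0562 by the same test. Without KO replicates 1 and 3 they were 0.0440 and 0.00958. Cartilage and muscle markers were nearly absent, at 0.49 to 2.56 CPM for 6 genes summed, and the notochord markers *T* and *Noto* at 0 in all libraries apart from 0.243 CPM of *T* in WT replicate 3.

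Type IV collagen was dominated by *Col4a1* and *Col4a2*, the chains of the ubiquitous basement membrane network. *Col4a1* was at 429, 561 and 426 CPM in WT and 341, 218 and 514 CPM in KO. *Col4a2* was at 150.0, 207 and 146 CPM in WT and 127, 79.7 and 192 CPM in KO. In both genes KO replicate 2 was the lowest library, KO replicate 1 the next, and KO replicate 3 lay within the WT range. The log2 fold changes were -0.40 (standard error 0.29, adjusted p = 0.741) and -0.33 (0.30, adjusted p = 0.816) by edgeR. Single libraries moved these values. Without KO replicate 3 they were -0.72 and -0.66, with unadjusted p-values of 0.0174 and 0.0348 and adjusted p-values of 0.282 and 0.389, and without KO replicate 2 they were -0.13 and -0.06.

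The ratio of *Col4a1* to *Col4a2* was the steadiest of the ratios computed between collagen genes. Per kilobase, *Col4a1* was at 2.79, 2.64 and 2.85 times the level of *Col4a2* in WT and at 2.61, 2.67 and 2.60 times in KO, a range of 1.09-fold, although *Col4a1* itself ran from 218 to 561 CPM. The *Col4a5* to *Col4a6* ratio ranged from 4.25 to 12.2. *Col4a1* and *Col4a2* lie head to head on mouse chromosome 8 and are read in opposite directions. *Col4a5* and *Col4a6* also lie head to head, on chromosome X, with *Col4a6* on the minus strand and *Col4a5* on the plus strand. A link between this layout and the ratios was not tested. In the RefSeq table the *Col4a1* transcript starts at 11312826 on the minus strand and the *Col4a2* transcript at 11312805 on the plus strand, so that their first 22 bases overlap. They are shown within 30 bases of the plus strand (chr8:11312801-11312830, GRCm38.p6), with the shared bases in capitals.
*Col4a1* and *Col4a2* starts: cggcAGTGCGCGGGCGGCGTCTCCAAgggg

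The other type IV chains were lower. *Col4a5*, a chain of the network found in kidney and smooth muscle, was at 46.9, 42.8 and 63.9 CPM in WT and 54.2, 34.6 and 81.2 CPM in KO. *Col4a6*, its neighbour in the genome and partner in the trimer, was at 3.91, 8.44 and 9.32 CPM in WT and 12.97, 2.96 and 10.45 CPM in KO. The genotypes overlapped in both, with log2 fold changes of 0.15 (standard error 0.30) and 0.29 (0.55). *Col4a3* and *Col4a4*, which make the mature network of the kidney glomerulus, had 0 to 7 counts per library and were not tested.

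Fibrillar and type IV collagens did not keep a fixed proportion. The 11 fibrillar genes summed to 149.6, 86.7 and 232 CPM per kb in WT and 213.5, 27.6 and 221 CPM per kb in KO. The 6 type IV genes summed to 95.9, 125 and 98.2 CPM per kb in WT and 81.5, 51.1 and 121.5 CPM per kb in KO. The fibrillar sum was thus 1.56, 0.694 and 2.37 times the type IV sum in WT and 2.62, 0.541 and 1.82 times in KO, with type IV above fibrillar in WT replicate 2 and KO replicate 2 and below it in the other 4 libraries. The ratio ranged over 4.84-fold across libraries, and the genotypes overlapped. For *Col1a1*, *Col1a2*, *Col3a1* and *Col5a2* alone against type IV the range was 15.8-fold, from 0.136 to 2.14.

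**Figure D3:**
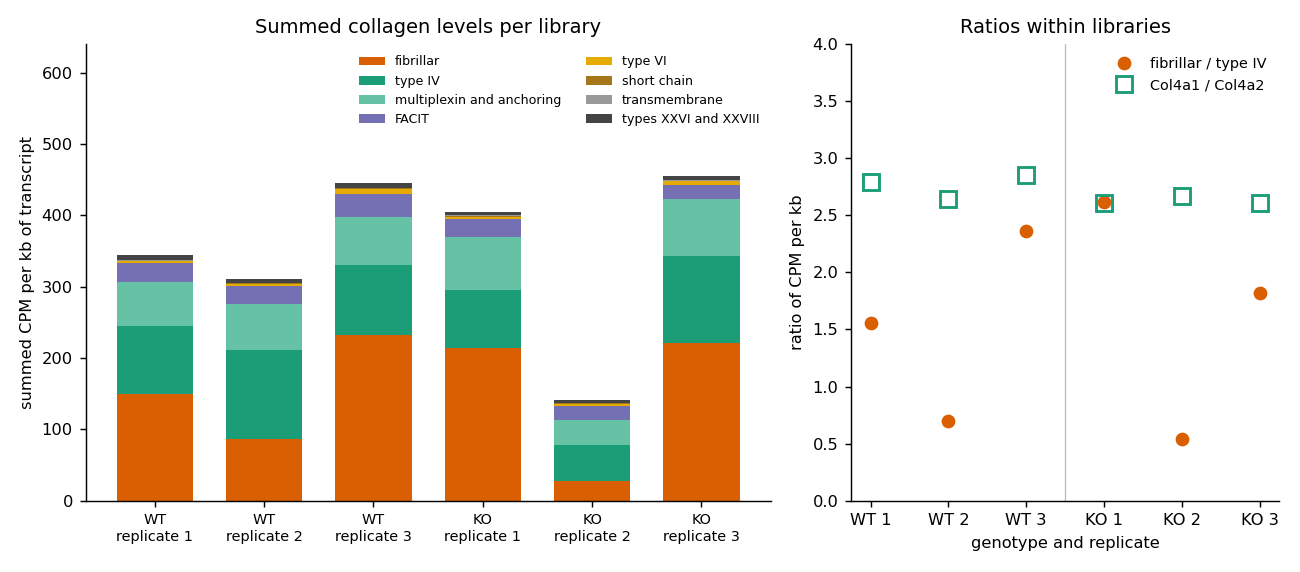
Left, summed levels of the collagen groups (CPM per kb of transcript) stacked by library. Right, the ratio of fibrillar to type IV levels (filled circles), which ran from 0.541 to 2.62, and of *Col4a1* to *Col4a2* (open squares), which stayed between 2.60 and 2.85.

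*Col18a1*, whose protein joins basement membranes and yields the fragment endostatin, was the most abundant of the multiplexin and anchoring chains. It was at 336, 356 and 373 CPM in WT and 416, 189 and 447 CPM in KO, with a log2 fold change of -0.02 (0.29, adjusted p = 0.993 by edgeR). Without KO replicate 2 the value was 0.30, with an unadjusted p of 0.0152 and an adjusted p of 0.268. *Col7a1*, the anchoring fibril chain, was at 4.996, 6.20 and 1.12 CPM in WT and 3.02, 0.684 and 4.14 CPM in KO. *Col15a1*, the other multiplexin, had 1 count in KO replicate 1 and 0 elsewhere.

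FACIT collagens attach to the surface of fibrils, and collagen IX coats fibrils of collagen II. Of its chains, *Col9a1* and *Col9a3* had lower values in KO, by small amounts. *Col9a3* was at 51.5, 50.3 and 61.2 CPM in WT and 44.6, 45.4 and 31.8 CPM in KO. *Col9a1* was at 15.9, 11.4 and 11.1 CPM in WT and 10.47, 6.15 and 7.73 CPM in KO. The genotypes did not overlap in either gene, and KO replicate 2 was the lowest library of *Col9a1* but the highest KO library of *Col9a3*. Their log2 fold changes were -0.42 (standard error 0.17, unadjusted p = 0.0386, adjusted p = 0.431) and -0.65 (0.25, unadjusted p = 0.0357, adjusted p = 0.419) by edgeR. When each of the 6 libraries was left out in turn, the unadjusted p was under 0.05 in 1 fit for *Col9a3* and in 2 for *Col9a1*. *Col9a2*, the remaining chain of the trimer, was at 5.23, 6.31 and 9.57 CPM in WT and 7.38, 4.67 and 5.12 CPM in KO, and the genotypes overlapped. Of the exon bases of *Col9a3*, 6.07% are shared with *Tcfl5*, and these libraries carry no strand, so reads there cannot be assigned to either gene.

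*Col22a1*, a FACIT chain of tissue junctions, was at 15.6, 17.9 and 16.3 CPM in WT and 12.3, 11.6 and 15.2 CPM in KO, without overlap (log2 fold change -0.35, standard error 0.16, adjusted p = 0.535 by edgeR). *Col16a1* was at 4.67 to 14.1 CPM and *Col12a1*, a chain of tension-bearing tissue, at 0.912 to 12.3 CPM, both lowest in KO replicate 2, with adjusted p-values of 0.898 and 0.869 by edgeR. *Col14a1*, a FACIT chain of collagen I fibrils, was at 0.424, 0 and 2.23 CPM in WT and 2.53, 0 and 2.45 CPM in KO, at 0 in the same 2 libraries in which collagens I and III were lowest.

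*Col26a1*, a small secreted collagen outside these families, was among the steadiest. It was at 19.9, 15.3 and 18.9 CPM in WT and 11.4, 12.6 and 14.8 CPM in KO, without overlap. KO was lower by a log2 fold change of -0.48 (standard error 0.17, unadjusted p = 0.0264) at an adjusted p of 0.368, the smallest of the collagen genes by edgeR's test. Leaving out single libraries moved the value between -0.57 and -0.39, and in 4 of those 6 fits the unadjusted p was above 0.05.

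Type VI collagen forms beaded filaments around cells. *Col6a2* was at 8.20, 8.21 and 12.4 CPM in WT and 6.97, 5.98 and 10.6 CPM in KO, and *Col6a1* at 3.96, 3.41 and 14.2 CPM in WT and 5.81, 2.96 and 7.62 CPM in KO. WT replicate 3 was the highest library of both, and their adjusted p-values were 0.912 for *Col6a1* and 0.831 for *Col6a2* by edgeR. *Col6a3*, *Col6a5* and *Col6a6* did not exceed 5.195 CPM in any library, and *Col6a4* had 0 to 9 counts. Of the transmembrane collagens, *Col17a1*, a chain of epithelial anchoring junctions, was at 0, 1.90 and 1.21 CPM in WT and 1.19, 2.39 and 1.20 CPM in KO. It was, among collagen genes with a mean of at least 1 CPM, one of the 5 with the widest range, and KO replicate 2 was its highest library. *Col13a1* and *Col25a1*, membrane collagens of nerve and muscle contacts, were at 0.67 to 2.45 CPM, and *Col8a2*, a short chain of basement membrane lattices, at 1.84 to 6.30 CPM, with overlapping genotypes in all 3. The genes *Col8a1*, *Col19a1* and *Col28a1* had at most 20 counts in a library and were not tested.

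Between genotypes, no collagen gene passed the adjusted test. By edgeR, 0 of the 35 tested had an adjusted p under 0.05, as had 0 (0%) of all 16353 genes tested. DESeq2 gave an adjusted p to 31 of them and called 0, against 4.87% of 14353 genes. At an unadjusted p under 0.05, 4 collagen genes (*Col2a1*, *Col9a1*, *Col9a3* and *Col26a1*) were lower in KO, 11.4% of those tested beside 3.97% of all genes tested. In the other direction there were 0, beside 6.42% of all genes. With *Col22a1*, 5 collagen genes (14.3%) had every KO library below every WT library, beside 7.99% of all genes, and 0 had every KO library above, beside 8.36%.

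The balance of lower and higher values depended on single libraries. Of the 35 tested genes, 21 had a fitted value lower in KO and 14 a higher one, with a median log2 fold change of -0.29 beside -0.02 over all genes tested. Without KO replicate 2, 36 collagen genes passed the filter, and 18 were lower and 18 higher, with a median of 0.01. Without WT replicate 3, 35 passed it, and 14 were lower and 21 higher, with a median of 0.07. The count of genes with an unadjusted p under 0.05 was 0 without WT replicate 1, 1 without WT replicate 2, 7 without KO replicate 3, and 3 without WT replicate 3, KO replicate 1 or KO replicate 2. Without WT replicate 1, 2.94% of all genes were lower and 5.31% higher at this threshold. The 1 gene without WT replicate 2, *Col26a1*, was lower, beside 2.56% lower and 7.14% higher of all genes. The 7 without KO replicate 3 were all lower in KO, beside 4.43% of all genes. Of the 3 without WT replicate 3, *Col9a1* was lower, beside 1.84% of all genes, and *Col6a3* and *Col8a2* were higher, beside 6.07%. The 3 without KO replicate 1 were lower, beside 2.18%. Without KO replicate 2, *Col2a1* and *Col9a3* were lower and *Col18a1* higher at this threshold, beside 4.56% lower and 7.09% higher of all genes.

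By group, the median log2 fold change was 0.04 for 10 fibrillar genes tested, -0.09 for 4 type IV genes and -0.38 for 8 FACIT genes. These medians were 0.45, 0.18 and -0.20 without KO replicate 2, over the genes that passed the filter in that fit. The plot of fold changes gives every tested gene with its standard error.

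**Figure D4:**
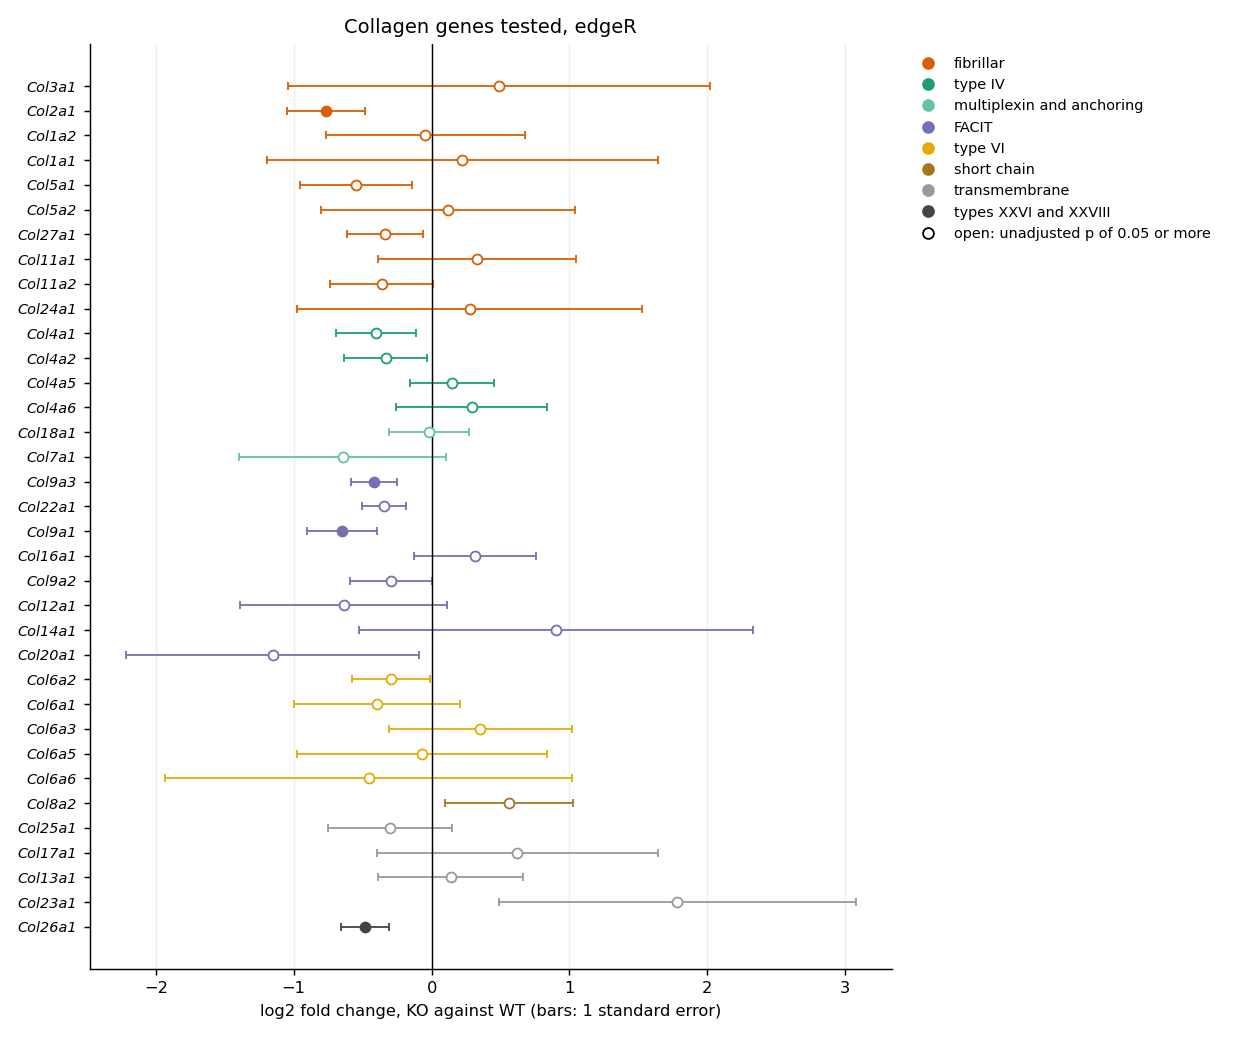
Log2 fold change of KO against WT for the 35 collagen genes tested, with bars of 1 standard error (edgeR) and colours by collagen group. Filled points are the 4 genes with an unadjusted p under 0.05, all lower in KO, and the bars of *Col3a1* and *Col1a1* span more than 1 log2 unit to each side.

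The collagen genes varied more between libraries of one genotype than most genes did. The median within-genotype SD of log2 CPM was 0.712 for the 35 genes tested and 0.233 for all 16353. Compared with genes of similar level, in 20 bins, 33 of the 35 were above the median of their bin and 23 above its 90th percentile. The spread was not that of KO replicate 2 alone. Among the 3 WT libraries the median SD was 0.674 for collagen genes and 0.195 for all genes, and in KO without replicate 2 it was 0.385 and 0.163. Without that library, a setting added after seeing the data, 33 were above the median of their bin and 20 above its 90th percentile. Such spread was not particular to collagens, since the median SD was 1.23 for 8 fibril partners, 1.57 for 9 mesenchymal markers, 2.10 for 6 endothelial markers and 0.813 for 5 hepatic markers, and 0.113 for 5 epithelial markers.

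Fibrillar genes had a median within-genotype SD of 1.29, type IV genes of 0.488 and FACIT genes of 0.553, which became 0.864, 0.339 and 0.442 without KO replicate 2. Among the KO libraries alone, the fibrillar median was 1.55 with that library and 0.445 without it. *Col3a1* at 5.09 and *Col1a1* at 4.69 were above 99.94% and 99.91% of all genes tested, values that rest on the 0 counts of KO replicate 2 and on the prior count. Without that library they were 1.13 and 1.21, above 97.2% and 97.68% of genes. With all 6 libraries, *Col22a1* at 0.162 and *Col26a1* at 0.194 were the 2 genes below the median of their level, and *Col9a3* at 0.231 and *Col9a1* at 0.336 came next among genes with a mean of at least 5 CPM. In each of these 4 genes the KO libraries were below the WT libraries. The same held for *Col2a1*, whose SD of 0.473 was above the 90th percentile of its level. The part of the spread in this separation was not tested. Without KO replicate 2, the genes below the median of their level were *Col18a1* and *Col22a1*, and *Col26a1* was above it.

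**Figure D5:**
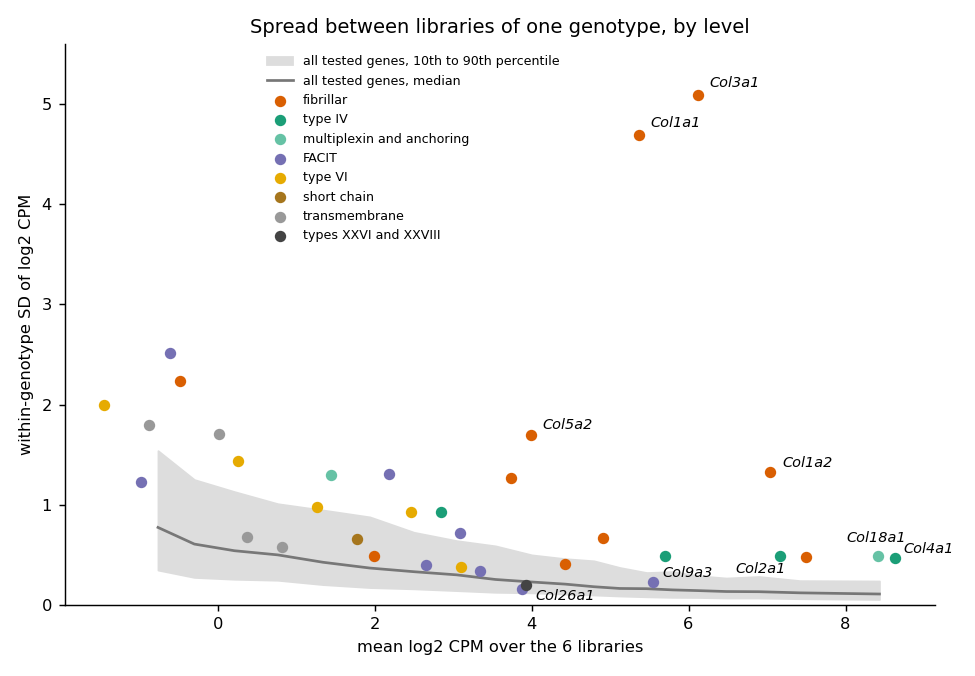
Within-genotype SD of log2 CPM against mean log2 CPM for the 35 collagen genes tested (points, coloured by group), over the median (line) and the 10th to 90th percentiles (grey) of all tested genes in 20 bins of level. *Col3a1* and *Col1a1* lie at 5.09 and 4.69, far above the band, and *Col26a1* and *Col22a1* lie below the line.

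MicroRNAs lower their targets by pairing of the seed, bases 2 to 8, with sites in the 3′UTR, so the collagen genes were searched for matches to the seed of miR-302, or to bases 2 to 7 followed by an A. Of each gene, the 3′UTR of the longest coding transcript with an annotated stop codon was searched, and other 3′UTRs were not. The mature miR-302b-3p (chr3:127545275-127545297, plus strand, GRCm38.p6, from RefSeq) is shown first with its seed in capitals. It is followed by 30 bases around each match in the tested collagen genes, with the matching bases in capitals. These come from GENCODE M21 transcripts and are named by their position in the 3′UTR.
miR-302b-3p: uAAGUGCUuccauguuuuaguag
*Col4a2*, position 667: gaggaggagatgatAGCACTTttttctatc
*Col17a1*, position 736: ccacacaccatcctGCACTTAggaaatggc
*Col17a1*, position 784: ttggtttttatttaAGCACTTtccactgtc
*Col20a1*, position 188: agccccttctttgtAGCACTTctaggttca
*Col23a1*, position 481: gattcctagagtccAGCACTTggggagaag
*Col23a1*, position 1848: tgcctgttaacataAGCACTTAaccaaaaa

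A match was present in 4 of the 34 tested collagen genes with a 3′UTR in that transcript (11.8%) and in 2792 of the 13741 tested genes with one (20.3%). *Col18a1* had no such 3′UTR and was not searched. The 3′UTRs of both sets had similar median lengths, of 1175 and 1146 bases. Of the 4 genes, 2 were lower and 2 higher in KO, with genotypes that overlapped. *Col4a2* had a log2 fold change of -0.33. *Col17a1*, with 2 matches, had one of 0.62 (standard error 1.02). *Col20a1*, a FACIT chain, was at 0.613, 0.726 and 1.02 CPM in WT and 0, 0.171 and 0.925 CPM in KO. *Col23a1*, a transmembrane collagen with a match of all seed bases followed by an A, was at 0, 0.615 and 0.631 CPM in WT and 3.62, 0.228 and 0.327 CPM in KO, so its fitted log2 fold change of 1.78 (standard error 1.29) rested on KO replicate 1. *Col2a1*, *Col9a1*, *Col9a3*, *Col22a1* and *Col26a1* had 0 matches.

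Genes that modify, export, process, bind or break down collagen were more often among the higher genes than the collagen genes were, a difference that was not tested. Among 65 such genes tested, 13 had an unadjusted p under 0.05, of which 10 (15.4%) were higher and 3 (4.62%) lower in KO, beside 6.42% and 3.97% of all genes tested, and 0 had an adjusted p under 0.05 by edgeR. Of the 15 genes for chain hydroxylation and glycosylation, 4 (26.7%) were higher at this threshold, beside 6.42% of all genes, and 0 lower, beside 3.97%. The lists were chosen with earlier results of these data known, so these shares only describe them and are no independent support. *Colgalt1*, which adds galactose to collagen chains, was at 52.6, 83.5 and 48.8 CPM in WT and 148, 120 and 136 CPM in KO (log2 fold change 1.13, standard error 0.21, adjusted p = 0.132 by edgeR and 9.88e-06 by DESeq2). *Crtap* and *P3h1*, partners in prolyl 3-hydroxylation, and *P4ha3*, a prolyl 4-hydroxylase subunit, had log2 fold changes of 0.80, 0.71 and 0.86, and DESeq2 called *Crtap* and *P4ha3*. The most abundant of this list, *P4hb*, was at 1213 to 1349 CPM with a log2 fold change of -0.08.

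Among 11 genes for propeptide cleavage and crosslinking, *Bmp1*, the procollagen C-proteinase, was the 1 gene higher at this threshold, beside 6.42% of all genes tested. It was at 18.2, 42.1 and 22.6 CPM in WT and 84.2, 75.9 and 54.1 CPM in KO, or 1.37 higher on the log2 scale (standard error 0.33, adjusted p = 0.164 by edgeR and 2.13e-04 by DESeq2). *Pxdn*, which crosslinks type IV collagen, was the most abundant there at 406 to 749 CPM, with overlapping genotypes. Of 8 breakdown genes, *Timp2*, a metalloproteinase inhibitor, was at 15.1, 33.9 and 19.7 CPM in WT and 92.0, 66.9 and 61.7 CPM in KO (log2 fold change 1.69 and adjusted p = 0.132 by edgeR, adjusted p = 7.39e-07 by DESeq2). *Mmp14* was the most abundant of these at 179 to 253 CPM, with a log2 fold change of -0.01. Of 7 chaperone and export genes *Mia2* was higher (0.41, unadjusted p = 0.025 and adjusted p = 0.357 by edgeR). *Serpinh1*, the collagen chaperone HSP47, was at 917, 826 and 912 CPM in WT and 1135, 641 and 1181 CPM in KO, lowest in KO replicate 2.

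Among 10 basement membrane partners of type IV collagen, 2 were higher and 2 lower at this threshold, beside 6.42% and 3.97% of all genes tested. The same shares stand beside the counts of the other partner lists. *Lamc1*, the common laminin gamma chain, was at 57.6, 89.9 and 53.6 CPM in WT and 145, 98.2 and 164 CPM in KO (log2 fold change 1.02, adjusted p = 0.168 by edgeR and 8.34e-04 by DESeq2). *Lama5*, a laminin alpha chain, was at 64.2, 73.4 and 80.9 CPM in WT and 47.3, 48.7 and 53.6 CPM in KO (-0.55, adjusted p = 0.14 by edgeR and 0.00609 by DESeq2). *Hspg2*, the proteoglycan perlecan, was at 39.7, 46.7 and 53.7 CPM in WT and 26.01, 20.5 and 35.4 CPM in KO (-0.77, adjusted p = 0.227 by edgeR and 0.0193 by DESeq2). *Agrn*, another proteoglycan, had a log2 fold change of 0.62 and *Lamb1*, the most abundant, of 0.02. Of 6 receptors, the integrin chain *Itga2* had one of 1.14 and *Itgb1*, its partner and the most abundant, one of -0.22, with unadjusted p-values of 0.0252 and 0.0451 and adjusted p-values of 0.36 and 0.46 by edgeR. Of 8 fibril partners 0 reached this threshold, and *Fn1*, the most abundant, was at 683, 925 and 945 CPM in WT and 567, 376 and 1244 CPM in KO.

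Transcripts of 8 of the 10 higher partner genes and 2 of the 3 lower ones held 200 consecutive bases of 75% GC or more, beside 20.17% of all tested genes with a transcript. Such runs were also found in several partner genes that did not reach the threshold, *P4hb* (75%) among them. Others, such as *Serpinh1* (66.5% at most) and *Pxdn* (73%), had none. The share among all partner genes that did not reach it was not computed. Of the 35 collagen genes tested such a run was found in 8 (22.9%), including *Col4a1*, *Col4a2* and *Col9a3*. The median log2 fold change was -0.34 for these 8 and -0.07 for the others. With offsets for GC content in the edgeR fit, the 10 higher partner genes and *Lama5* and *Hspg2* kept an unadjusted p under 0.05 and *Itgb1* did not. Without KO replicate 2, *Itga2* and *Itgb1* were the 2 of the 13 that did not reach it. With the GC offsets, the log2 fold changes of *Col2a1*, *Col9a1*, *Col9a3* and *Col26a1* were -0.89, -0.63, -0.49 and -0.58. The part of GC content in these values was not tested.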

How the data were processed

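Polyadenylated RNA of 3 WT and 3 KO libraries was analysed, grouped by the deposited labels. According to the methods, the authors removed low-quality sequence, used STAR for alignment to GRCm39 and GenomicAlignments for counting. The deposited values are whole-number counts per gene, without normalization. Annotation, tool versions and handling of shared reads are not given in the sources used here, and the kit does not mark strand. A symbol was found for 94% of identifiers.

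From these counts, edgeR 4.0.16 (R 4.3.3) used filterByExpr, TMM scaling and the default quasi-likelihood test, with genotype as the only term and Benjamini-Hochberg adjustment over 16353 genes. Alternatives were DESeq2 1.42.0, other size factors, other filters on low counts, another estimate of the spread, GC offsets, a replicate block and leaving out each library. Standard errors are the log2 fold change divided by the root of F. The SD of log2 CPM used a prior count of 2. Lengths, GC and 3′UTRs came from GENCODE M21 (GRCm38) and promoters from RefSeq (GRCm38.p6), so no gene coordinates of the count build are given. The fit was tested on simulated counts with the same set spread for all genes, where it recovered 80.5% of 200 changed genes. That spread was not taken from these libraries, so this share does not carry over to the collagen genes.

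Genes were named if fibrillar or type IV with a count, at a mean of at least 5 CPM, with an unadjusted p under 0.05 or a DESeq2 adjusted p under 0.05, without overlap of genotypes, or among the 5 widest. In partner lists, those with an unadjusted p under 0.05 and the most abundant were named. The other collagen genes were added to account for every group or as seed matches. The genes and lists were chosen with earlier results of these data known. A count of 0 allows up to 3 counts, which covers counting error only.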

Additional observations from a re-analysis of the deposited data

How the results depend on the processing

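No collagen gene was called under any of the alternatives, and the smallest adjusted p was 0.0706 (*Col2a1*, DESeq2). Over all genes, DESeq2 called 699, edgeR without a filter on low counts 264, edgeR without single libraries 0 to 217 (217 without WT replicate 2 and 0 in the other 5 fits), and the remaining alternatives 0, as with the main settings. With the replicate block, 3 collagen genes had an unadjusted p under 0.05, against 4 without it, and 0 were called. The share of all genes at this threshold is not given for that fit. What the replicate numbers stand for is not given in the sources used here. The library names of WT replicate 2 and KO replicate 1 share a prefix of unstated meaning, which was not used in any fit. Deviations from the genotype means correlated at -0.211, 0.251 and 0.0779 between libraries of equal number and at -0.307 to 0.336 between the others. With 3 libraries a genotype, these values cannot show whether libraries of equal number were paired. Leaving out single libraries gave 0 to 7 collagen genes with an unadjusted p under 0.05, beside the shares of all genes given above. The planned older estimate of the spread is this edgeR version's default, so the newer one, chosen after seeing the data, was run instead. It gave 4, also without a share of all genes beside it. The median fibrillar to type IV ratio of 1.69 became 1.13 with joined exon lengths, 1.45 without length scaling and 1.03 with *Col15a1*, *Col18a1* and *Col7a1* added to type IV.

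Of 334 log2 fold changes of 26 named genes under alternatives, 308 kept their direction and 26 turned. In the fit with the replicate block, *Col3a1* was at -0.74, *Col1a1* at -0.74 and *Col5a2* at -0.42. *Col18a1* was at 0.0034 with DESeq2 and 0.0073 among genes with a mean of at least 100 counts. Leaving out single libraries gave ranges of -0.0691 to 1.30 for *Col3a1*, -0.41 to 0.61 for *Col1a2*, -0.45 to 1.177 for *Col1a1*, -1.13 to 0.89 for *Col5a2*, -0.55 to 0.80 for *Col11a1*, -0.58 to 0.83 for *Col24a1*, -0.17 to 0.41 for *Col4a5*, -0.10 to 0.72 for *Col4a6*, -0.19 to 0.30 for *Col18a1*, -0.51 to 0.0251 for *Col9a2*, -1.20 to 0.0911 for *Col12a1* and -0.72 to 0.60 for *Col6a1*. The cause was not tested. With 3 libraries a genotype, the spread between libraries limits the abundant genes, and low counts limit the 9 collagen genes that were not tested.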
